A study of Mus musculus with 6 samples.

Results

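The genes described here are 10 components of the Wnt and beta-catenin pathway that induces the blood-brain barrier in endothelial cells, *Axin2*, *Lef1*, *Apcdd1*, *Fzd4*, *Fzd6*, *Tspan12*, *Lrp5*, *Lrp6*, *Adgra2* and *Reck*, chosen by name among 32287 features, and all 10 were found. They were measured in single-cell RNA sequencing libraries of brain microvessels from 3 WT (C57BL/6J) and 3 ArcSwe mice (AppArcSwe, carrying an amyloid precursor protein transgene with the Arctic and Swedish mutations). Each library came from 1 male mouse of 12 months, from 1 cerebral hemisphere from which vascular fragments were collected with beads against CD31. No mouse was treated, and the groups differed by genotype. Cell classes were rebuilt by clustering, since the files held no cell annotation, and neither these genes nor the other pathway genes listed below were used to form the clusters.

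Canonical Wnt signalling begins when a ligand binds a frizzled receptor together with Lrp5 or Lrp6, which stops the destruction complex around Axin and APC from degrading beta-catenin. Beta-catenin then enters the nucleus and activates transcription with factors of the LEF and TCF family. In brain vessels, ligands made by neural and glial cells act through this route to induce and maintain barrier properties, whereas fenestrated vessels, such as those of the choroid plexus and circumventricular organs, lack a barrier. *Axin2*, *Lef1* and *Apcdd1* are transcriptional targets of the pathway. Axin2 is a scaffold that limits the signal by feedback, Lef1 is a DNA-binding partner of beta-catenin, and Apcdd1 is a membrane protein that inhibits Wnt signalling. Fzd4 is the receptor for Norrin, and the tetraspanin Tspan12 enhances signalling by Norrin through it. Fzd6 is a further frizzled receptor. Adgra2, also called GPR124, and the membrane-anchored protein Reck together form a co-receptor specific for WNT7A and WNT7B.

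RefSeq promoter windows (GRCm38.p6) were at hand for 5 of the 10 genes, in 8 windows, and the 250 bases before each transcript start were searched on both strands for TCAAAG, the core letters bound by LEF and TCF factors. The windows of 2 transcriptional targets are shown, *Axin2* (chr11:108920099-108920348, + strand, immediately upstream of the gene) and an internal transcript start of *Lef1* (chr3:131156044-131156293, + strand, inside the gene and outside every annotated exon). Capitals mark the motif matches.

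Lef1: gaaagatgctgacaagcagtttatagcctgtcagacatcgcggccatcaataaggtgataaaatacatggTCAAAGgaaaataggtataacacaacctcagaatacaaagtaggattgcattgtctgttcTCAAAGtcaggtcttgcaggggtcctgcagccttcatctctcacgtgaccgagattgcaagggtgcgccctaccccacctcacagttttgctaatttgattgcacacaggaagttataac

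Axin2: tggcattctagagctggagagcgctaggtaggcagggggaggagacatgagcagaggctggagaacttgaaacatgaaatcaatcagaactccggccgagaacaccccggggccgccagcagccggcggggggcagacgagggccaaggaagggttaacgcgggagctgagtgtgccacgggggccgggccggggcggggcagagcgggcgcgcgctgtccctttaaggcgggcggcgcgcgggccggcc

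The internal *Lef1* window held 2 matches, at positions -180 and -120 from the transcript start, and no match was found in the *Axin2* window, in the other *Lef1* windows or in those of *Fzd4*, *Tspan12* and *Reck*. The motif occurred in 13.8% of all 32851 windows. The UMI counts do not tell transcript starts apart.

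The libraries held 2907 to 14928 cells and 26436229 to 59161203 UMIs (unique molecular identifiers, counted transcripts), with 4 to 42 cell barcodes in common between any pair of libraries. UMIs were summed per mouse and class and are given as CPM, which are counts scaled to the same total in every sum. Levels are given as lowest to highest of the 6 mice with the median, or as mean ± SD. Log2 fold changes are given ± SE from edgeR's quasi-likelihood test, with p adjusted by Benjamini-Hochberg over all genes tested and called under 0.05. Levels of different genes were not compared. The libraries WT 3 and ArcSwe 3 stood apart, with 48 of 2181 and 55 of 1964 cells of the capillary clusters led by *Dusp6* and *Egr3* from WT 3, and 1458 of 1830 cells of another capillary cluster from ArcSwe 3. UMIs of barrier endothelial genes also appeared in other classes. Relative to barrier cells of the same mouse, the summed CPM of 11 barrier markers (*Cldn5*, *Slc2a1*, *Slco1a4* and others) in microglia was 4.17%, 4.38% and 17.5% in WT 1, 2 and 3, and 12.5%, 4.46% and 28.2% in ArcSwe 1, 2 and 3.

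The first comparison asked how the pathway differed between endothelial cells with and without a barrier. Barrier cells numbered 20705 and fenestrated cells 635, with 61 to 170 fenestrated cells per mouse. Both names came from marker lists that include *Plvap* and *Cldn5*, so the levels of these 2 genes describe the classes and are no separate check. *Plvap*, a protein of the diaphragms of fenestrae, was at 2219 to 2804 CPM in fenestrated cells and at 0.783 to 2.24 CPM in barrier cells. *Cldn5*, a tight junction protein, was at 5089 to 6533 CPM in barrier cells and at 54.3 to 933 CPM in fenestrated cells. All 10 genes differed between the classes, 7 higher and 3 lower in barrier cells, against 18.4% and 19.2% of the 11578 genes tested (37.5% in either direction). The level of each of the 10 genes in barrier cells did not overlap with that in fenestrated cells. The share of all genes tested without such overlap was not computed for these classes.

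The transcriptional targets showed the largest differences of the 10 genes. *Lef1* was at 826 to 1104 CPM (median 979) in barrier cells and at 11.2 to 239 CPM (median 57.8) in fenestrated cells of the same mice. The fenestrated value of ArcSwe 3 was far above the other 5. The log2 fold change was 3.86 ± 0.28 (adjusted p = 1.3e-10). *Apcdd1* was at 254 to 350.0 CPM (median 281) in barrier cells and at 8.70 to 68.4 CPM (median 21.9) in fenestrated cells, a log2 fold change of 3.38 ± 0.21 (adjusted p = 1.1e-11). *Axin2* was at 77.8 to 115 CPM (median 108) in barrier cells and at 7.01 to 31.9 CPM (median 9.78) in fenestrated cells, where it rested on 4 to 14 UMIs per mouse. Its log2 fold change was 2.88 ± 0.21 (adjusted p = 2.6e-10). In barrier cells *Axin2* was lowest in WT 3 and ArcSwe 3, at 77.8 and 78.7 CPM, against 107 to 115 CPM in the other 4 mice. *Lef1*, *Apcdd1* and *Axin2* were higher in barrier cells in 6 of 6 mice, by 14.5-fold, 10.4-fold and 7.38-fold, and each was highest among fenestrated sums in ArcSwe 3.

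The Norrin receptor and its partner went the other way. *Fzd4* was at 94.0 to 124 CPM (median 109.6) in barrier cells and at 223 to 336 CPM (median 291) in fenestrated cells, a log2 fold change of -1.39 ± 0.08 (adjusted p = 5.3e-12). *Tspan12*, its partner, was at 84.9 to 94.2 CPM (median 88.9) in barrier cells and at 261 to 329 CPM (median 281) in fenestrated cells, a log2 fold change of -1.72 ± 0.08 (adjusted p = 5.9e-14). Both were lower in barrier cells in 6 of 6 mice, by 2.62-fold and 3.30-fold. The co-receptors split. *Lrp5* was at 58.6 to 71.3 CPM (median 60.4) in barrier cells and at 75.3 to 132 CPM (median 104) in fenestrated cells (log2 fold change -0.75 ± 0.11, adjusted p = 5.2e-06), whereas *Lrp6* was at 145 to 165 CPM (median 160.3) in barrier cells and at 31.5 to 86.7 CPM (median 60.0) in fenestrated cells (log2 fold change 1.41 ± 0.13, adjusted p = 8.9e-09). *Lrp5* was lower and *Lrp6* higher in barrier cells in every mouse.

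The WNT7 co-receptor genes and *Fzd6* were higher in barrier cells. *Adgra2* was at 105 to 133 CPM (median 116) in barrier cells and at 13.7 to 31.9 CPM (median 19.8) in fenestrated cells, a log2 fold change of 2.36 ± 0.15 (adjusted p = 1.8e-11). *Reck* was at 156 to 187 CPM (median 176) in barrier cells and at 34.8 to 77.5 CPM (median 51.4) in fenestrated cells, a log2 fold change of 1.64 ± 0.12 (adjusted p = 1.3e-10). *Fzd6* was at 219 to 305 CPM (median 247) in barrier cells and at 45.6 to 72.5 CPM (median 58.8) in fenestrated cells, a log2 fold change of 2.12 ± 0.11 (adjusted p = 8.8e-13). The plot by mouse shows the separation of the classes for each gene.

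**Figure D1:**
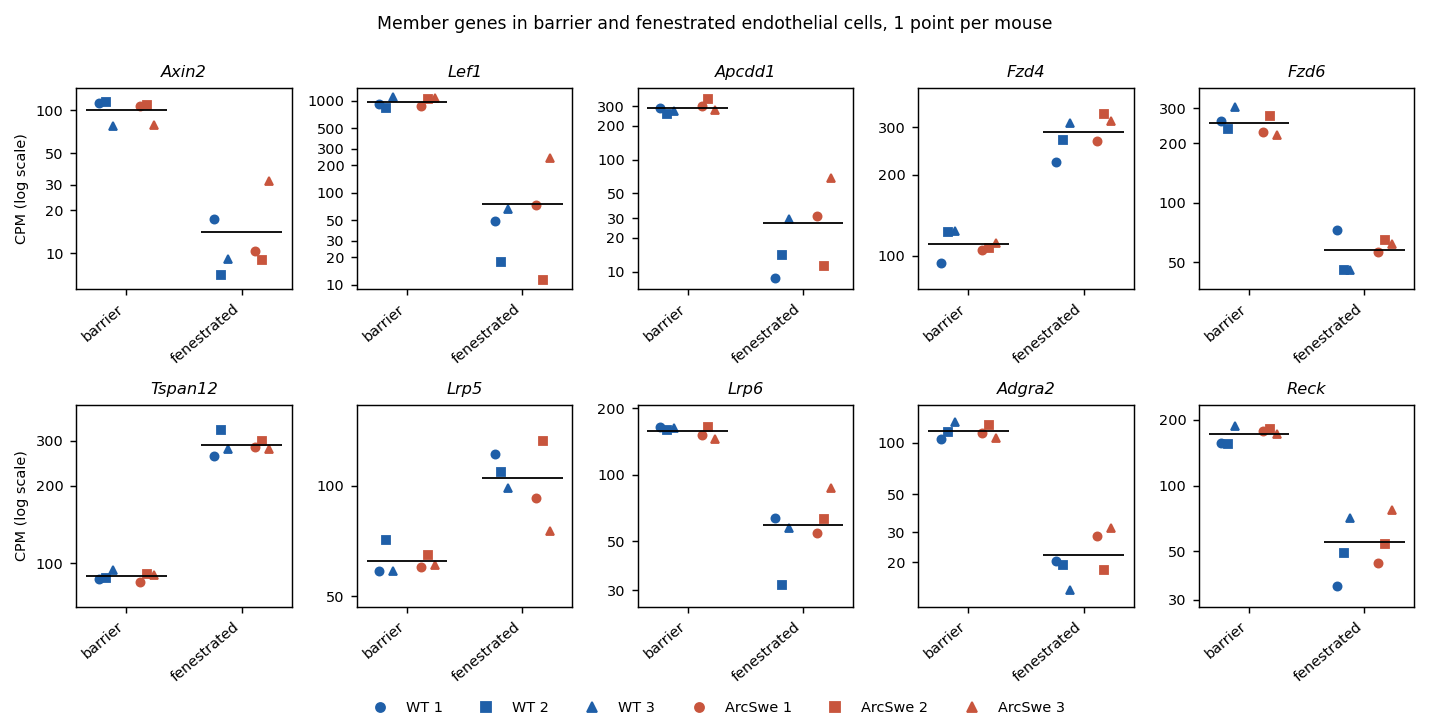
Levels of the 10 genes in CPM (log axis) in barrier and fenestrated endothelial cells, with 1 point per mouse, colour for genotype, marker shape for the mouse number and a line at the mean of 6 mice. *Fzd4*, *Tspan12* and *Lrp5* lie higher in fenestrated cells and the other 7 genes lie higher in barrier cells, with no overlap between the classes.

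Transcripts of barrier markers in the fenestrated sums moved with the level of *Lef1* there, and less closely with those of *Apcdd1* and *Axin2*. The summed CPM of the 11 barrier markers in fenestrated cells was 11.5%, 9.57% and 14.6% of that in barrier cells in the WT mice and 16.0%, 9.60% and 24.7% in the ArcSwe mice, and *Lef1* was at 5.38%, 2.12%, 6.01%, 8.33%, 1.08% and 22.3%. In the same order *Apcdd1* was at 3.04%, 5.51%, 10.9%, 10.4%, 3.20% and 24.9%, and *Axin2* at 15.6%, 6.12%, 11.8%, 9.75%, 8.23% and 40.6%. All 11 markers had UMIs in fenestrated cells, but to unlike degrees. *Ly6c1* was at a mean of 1351 CPM there and 2720 CPM in barrier cells, and *Itm2a* at 628 and 2991 CPM. *Cldn5* was at 320 and 5950 CPM. The summed share therefore also holds markers with a high level in fenestrated cells. Whether fenestrated cells made these transcripts themselves, and the part of such transcripts in the differences, was not tested. Without both mice numbered 3 the log2 fold change was 4.50 ± 0.19 for *Lef1*, 3.40 ± 0.21 for *Axin2* and -1.76 ± 0.09 for *Tspan12*.

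Of 101 other genes of the pathway, 55 were expressed enough to be tested between barrier and fenestrated cells, and 21 were higher and 13 lower in barrier cells, against 18.4% and 19.2% of all genes tested. Of the feedback genes and direct targets, 9 of 13 tested were higher and 2 lower, with a median log2 fold change of 1.99 against 0.02 over all genes tested. *Notum*, a secreted enzyme that inactivates Wnt ligands, was at a mean of 59.7 CPM in barrier and 2.49 CPM in fenestrated cells (log2 fold change 4.47 ± 0.31, adjusted p = 6.4e-11). Over the 6 fenestrated sums *Notum* had 8 UMIs. The transcription factor gene *Foxq1* was at a mean of 514 CPM in barrier and 30.3 CPM in fenestrated cells (log2 fold change 4.12 ± 0.23, adjusted p = 2.9e-12). *Tnfrsf19*, a TNF receptor family member, was higher by a log2 fold change of 3.82 ± 0.27 (adjusted p = 1.3e-10).

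Among nuclear partners, 4 of 11 tested were higher and 5 lower in barrier cells. *Tcf7* was at 83.6 CPM in barrier and 9.36 CPM in fenestrated cells (log2 fold change 3.23 ± 0.21, adjusted p = 3.1e-11), while *Tcf7l1*, a family member known mainly as a repressor, was at 54.1 and 222 CPM (log2 fold change -2.07 ± 0.09, adjusted p = 7.0e-14). Of the intracellular transducers, 2 of 13 tested were higher and 1 lower. *Ctnnb1*, which encodes beta-catenin itself, was at 658 and 458 CPM (log2 fold change 0.50 ± 0.07, adjusted p = 9.2e-06). Of the other receptors and their turnover genes, 2 of 7 tested were higher, *Fzd3* (log2 fold change 2.96 ± 0.38) and the ubiquitin ligase gene *Znrf3*, which removes frizzled receptors (2.89 ± 0.24), and 1 was lower, *Fzd1* (-1.19 ± 0.34).

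Few ligand genes reached the sums, 5 of 24 being tested. *Wnt5a* and *Wnt5b*, which signal mainly through non-canonical routes, were higher in barrier cells (log2 fold changes 4.23 ± 0.42, against 6 fenestrated UMIs in all, and 2.32 ± 0.29), and *Rspo3*, an R-spondin that amplifies Wnt signalling, was at 13.3 CPM in fenestrated and 0.766 CPM in barrier cells (log2 fold change -4.28 ± 0.45, adjusted p = 5.7e-08). The inhibitor genes were mixed, with 2 of 6 tested higher and 3 lower in barrier cells. *Dkk2* was at a mean of 13.7 CPM in barrier cells and rested on 3 UMIs over the fenestrated sums of 6 mice, and *Cxxc4*, *Kremen2* and *Tmem88* were lower (-4.97 ± 0.33, -2.71 ± 0.52 and -1.46 ± 0.10).

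**Figure D2:**
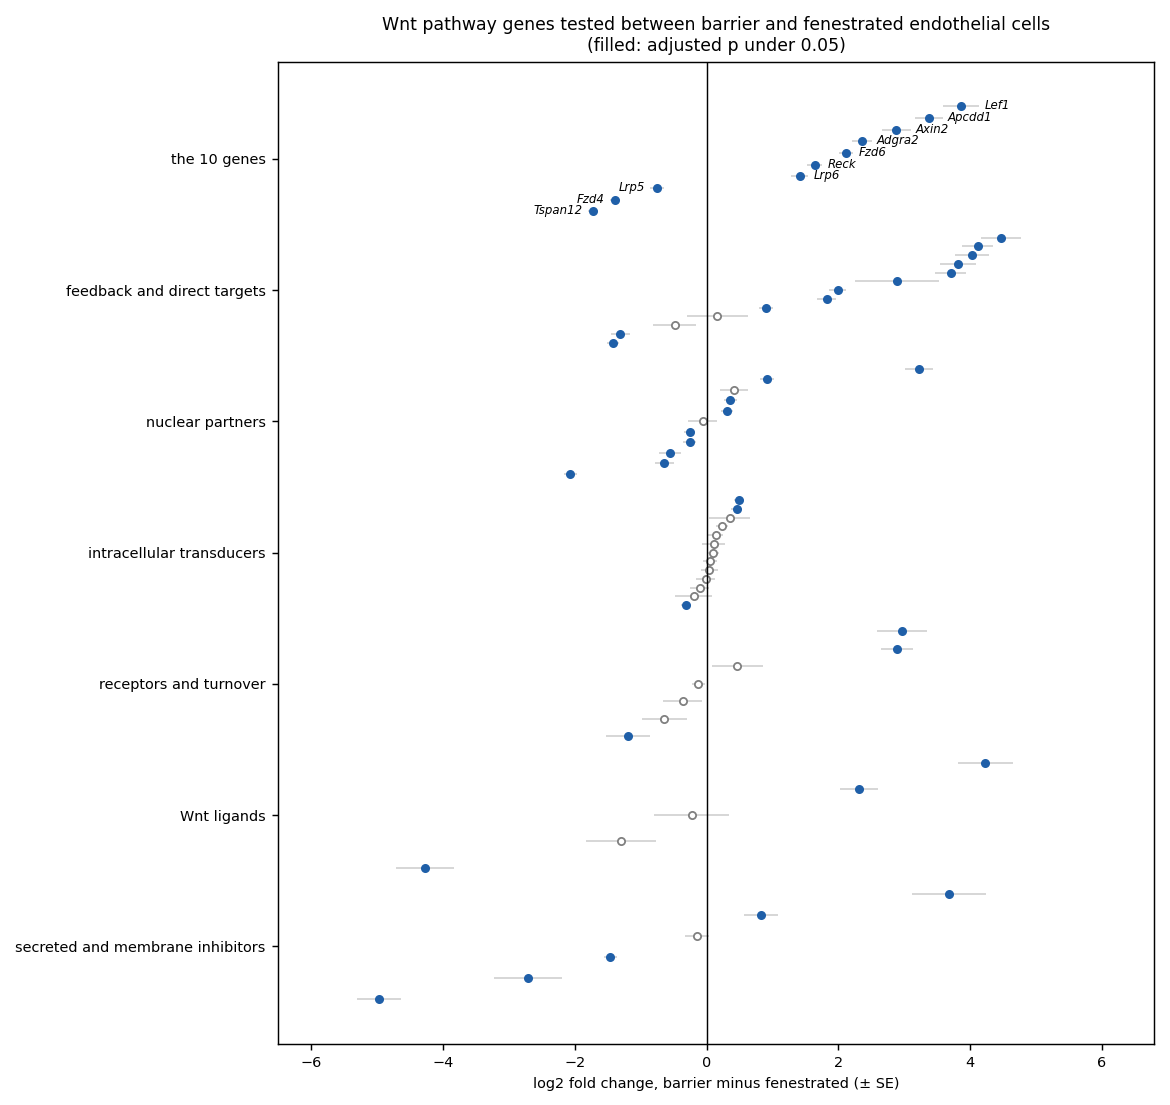
Log2 fold change between barrier and fenestrated endothelial cells (positive is higher in barrier cells) with its standard error for the 10 genes described here and the 55 other pathway genes tested, by role. Filled points passed an adjusted p of 0.05, and the median over the feedback and direct targets was 1.99.

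Barrier endothelial cells change along the vessel from artery to vein, and the second comparison placed the 10 genes in 4 zones, large arterial (74 to 307 cells per mouse), arteriolar (158 to 578), capillary (696 to 2442) and venous (47 to 279). The clusters of 6370 barrier cells were left without a zone name, among them clusters of 2353 and 2048 cells whose highest marker score was capillary. The arteriolar zone shared markers with both of its neighbours. The median summed CPM of 8 arteriolar markers was 3816 in arteriolar, 4871 in large arterial and 570 in capillary cells. That of 9 capillary markers was 6936 in arteriolar and 10237 in capillary cells, and that of 8 large arterial markers 1509 in arteriolar and 14259 in large arterial cells. Summed CPM of 8 smooth muscle markers was 20.8 to 132 in large arterial and 23.1 to 152 in capillary cells, against 36240 to 39095 in smooth muscle cells. A joint test over zones called all 10 genes, against 63.5% of the 9773 genes tested. Against capillary cells, 8 of the 10 differed in large arterial cells (3 higher, 5 lower), where 47.3% of genes tested were called, 23.9% higher and 23.4% lower. In arteriolar cells 8 differed (6 higher, 2 lower), where 32.6% were called, 16.8% higher and 15.7% lower. In venous cells 6 differed (1 higher, 5 lower), where 34.4% were called, 17.9% higher and 16.5% lower.

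*Apcdd1* peaked in capillaries. It was at 32.2 to 61.4 CPM (median 36.3) in large arterial cells, at 87.9 to 171 CPM (median 143) in arteriolar cells, at 278 to 357 CPM (median 322) in capillary cells and at 152 to 232 CPM (median 169) in venous cells. No zone overlapped with the capillary zone, and the log2 fold changes against it were -2.97 ± 0.10 (adjusted p = 2.4e-23), -1.25 ± 0.08 (adjusted p = 1.0e-15) and -0.83 ± 0.08 (adjusted p = 1.1e-10). *Lef1* was lower at the arterial end. It was at 268 to 464 CPM (median 341) in large arterial cells and at 839 to 1134 CPM (median 953) in capillary cells (log2 fold change -1.43 ± 0.07, adjusted p = 2.5e-19). Its arteriolar level was 989 ± 94.4 CPM and its venous level 997 ± 146 CPM, against 979 ± 119 CPM in capillaries, with log2 fold changes of -0.02 ± 0.06 (adjusted p = 0.85) and 0.06 ± 0.06 (adjusted p = 0.55). In every alternative that clustered the cells anew, *Lef1* was called lower in arteriolar than in capillary cells (log2 fold changes -0.28 to -0.49).

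*Axin2* was low at both ends of the vessel tree. It was at 36.0 to 68.1 CPM (median 46.7) in large arterial cells and at 31.4 to 72.3 CPM (median 57.7) in venous cells, below its arteriolar level of 107 ± 17.6 CPM and its capillary level of 104 ± 15.0 CPM. The log2 fold changes against capillary cells were -1.08 ± 0.11 (adjusted p = 1.3e-10) in large arterial, -0.01 ± 0.08 (adjusted p = 0.97) in arteriolar and -0.90 ± 0.11 (adjusted p = 1.6e-08) in venous cells. In arteriolar, capillary and venous cells the lowest *Axin2* levels were those of the mice numbered 3. The capillary values of WT 3 and ArcSwe 3 were 88.2 and 86.0 CPM and those of the other 4 mice 101 to 120.2 CPM.

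*Reck* had the steepest gradient from artery to vein. It was at 443 to 663 CPM (median 529) in large arterial, 200.0 to 268 CPM (median 245) in arteriolar, 112 to 154 CPM (median 141) in capillary and 37.7 to 57.5 CPM (median 52.3) in venous cells, with no overlap between any of the 4 zones. The log2 fold changes against capillary cells were 2.03 ± 0.08 (adjusted p = 2.1e-21), 0.75 ± 0.08 (adjusted p = 4.3e-09) and -1.41 ± 0.12 (adjusted p = 5.7e-12). *Adgra2*, its partner, did not follow this gradient. Its means were 121 ± 22.4 CPM, 142 ± 10.8 CPM, 107 ± 8.27 CPM and 139 ± 17.2 CPM in the same order, and it was higher in arteriolar (log2 fold change 0.38 ± 0.07, adjusted p = 2.7e-05) and venous cells (0.43 ± 0.08, adjusted p = 1.8e-05) than in capillaries.

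The frizzled genes took different orders. *Fzd4* was at 72.1 ± 13.7 CPM in large arterial, 92.7 ± 11.2 CPM in arteriolar, 112 ± 10.8 CPM in capillary and 124 ± 13.2 CPM in venous cells, and was lower than in capillaries in large arterial (log2 fold change -0.51 ± 0.09, adjusted p = 2.3e-05) and arteriolar cells (-0.29 ± 0.08, adjusted p = 0.0061). Its venous level did not pass the test against capillaries (log2 fold change 0.21 ± 0.09, adjusted p = 0.06), and did so without ArcSwe 2, ArcSwe 3 or WT 3 (0.24, 0.25 and 0.26) and without both mice numbered 3 (0.32 ± 0.10, adjusted p = 0.0099). *Fzd6* peaked in arterioles, at 309.8 to 398 CPM (median 365), against 215 to 307 CPM (median 246) in capillaries (log2 fold change 0.51 ± 0.06, adjusted p = 8.4e-09), and was lowest in veins, at 138 to 195 CPM (median 175), at a log2 fold change against capillaries of -0.54 ± 0.07 (adjusted p = 4.1e-08). Arteriolar and venous *Fzd6* levels did not overlap with capillary levels.

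*Tspan12*, *Lrp5* and *Lrp6* had their highest mean level in arterioles. *Tspan12* was highest in arterioles at 117 ± 6.66 CPM, against 87.8 ± 5.44 CPM in capillaries (log2 fold change 0.39 ± 0.07, adjusted p = 4.8e-05), and lower in large arteries (log2 fold change -0.30 ± 0.09, adjusted p = 0.0054). *Lrp5* was at 77.3 ± 9.34 CPM in arterioles, 60.6 ± 6.27 CPM in capillaries and 46.2 ± 4.09 CPM in veins, with log2 fold changes against capillaries of 0.30 ± 0.08 (adjusted p = 0.0021) in arterioles and -0.33 ± 0.10 (adjusted p = 0.0084) in veins, the latter at an adjusted p of 0.07 without both mice numbered 3. *Lrp6* was higher in arterioles (log2 fold change 0.31 ± 0.06, adjusted p = 9.0e-05), and its large arterial and venous differences from capillaries did not pass the test (log2 fold changes -0.01 ± 0.07, adjusted p = 0.91 and -0.18 ± 0.07, adjusted p = 0.051).

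**Figure D3:**
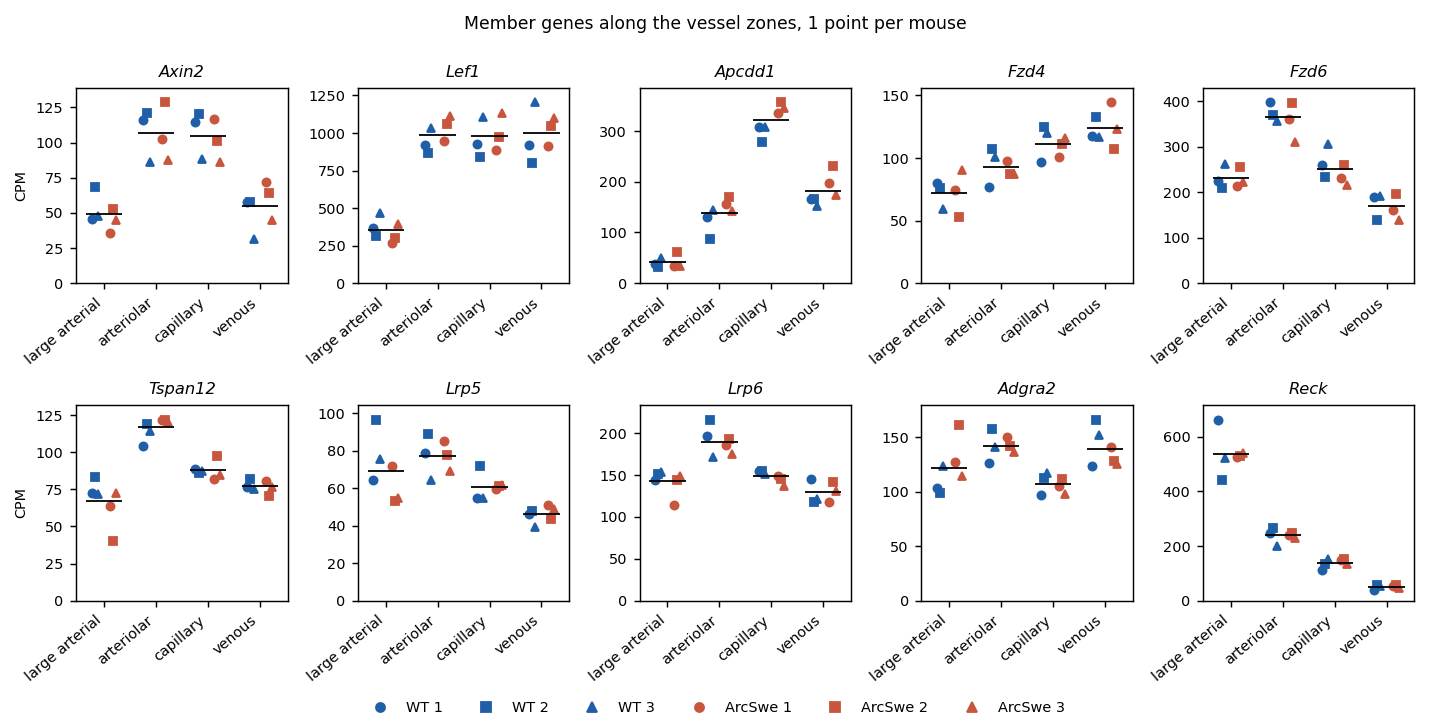
Levels of the 10 genes in CPM in the 4 zones of barrier endothelial cells, with 1 point per mouse, colour for genotype, marker shape for the mouse number and a line at the mean of 6 mice. *Apcdd1* peaks in capillaries, *Reck* falls from large arterial to venous cells, *Axin2* is low at both ends and *Lef1* is low in large arterial cells.

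The arteriolar differences depended on how cells were filtered. When only cells with 1000 or more genes and a mitochondrial share below 5% were kept, *Lef1* was lower in arteriolar than in capillary cells (log2 fold change -0.49, adjusted p = 3.0e-09), and the arteriolar calls of *Fzd6*, *Lrp5*, *Lrp6* and *Adgra2* were lost (log2 fold changes 0.11, 0.12, 0.10 and 0.09). In large arterial cells *Lrp5* (log2 fold change 0.24 ± 0.09, adjusted p = 0.025) and *Adgra2* (0.23 ± 0.08, adjusted p = 0.0097) passed the test, and these calls were lost under the same filter (log2 fold changes 0.15 and 0.11). They were also lost with no filter on low counts, with microglial UMIs kept and without mouse as a block. The same held at a clustering resolution of 2 and with pathway genes used for clustering. The log2 fold changes there were 0.17 to 0.29 for *Lrp5* and 0.046 to 0.22 for *Adgra2*. Without ArcSwe 1 both missed the threshold (log2 fold changes 0.21 and 0.21), and *Lrp5* also missed it without WT 1, WT 2 or WT 3 (0.23, 0.21 and 0.19).

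Within the zones the 10 genes also differed between clusters, given as a description with no test for clusters chosen after their values were seen. Of 13 clusters of barrier cells, a cluster led by *Sdk1* and *Flrt2*, with capillary markers and left without a zone name, held the highest mean level of *Lef1* (1659 CPM), *Apcdd1* (561 CPM) and *Fzd4* (147 CPM). *Reck* was at a mean of 216 CPM in the capillary cluster led by *Ndnf* and *Car4* and at 50.2 CPM in the capillary cluster led by the immediate early gene *Egr3*, which was the lowest of the 13. The latter cluster also had lower levels of *Apcdd1* (214 CPM) and *Adgra2* (68.1 CPM) than the former (479 and 128 CPM). A cluster with arteriolar markers led by *S100a4*, *Fabp4* and *Pi16*, without a zone name, had the lowest mean *Apcdd1* (33.5 CPM), *Fzd4* (50.3 CPM) and *Adgra2* (59.9 CPM). In a cluster of 58 cells led by *Apln*, *Angpt2* and *Kit*, the mean level was 54.1 CPM for *Axin2* and 813 CPM for *Lef1*, from the 2 mice with 10 or more such cells, ArcSwe 1 and ArcSwe 3.

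Other pathway genes marked the ends of the vessel tree. *Dkk2*, a secreted Wnt modulator, was at a mean of 123 CPM in large arterial and 1.28 CPM in capillary cells (log2 fold change 6.50 ± 0.20, adjusted p = 6.0e-25) and also higher in arteriolar cells (4.45 ± 0.25). The ligand *Wnt5b* was arterial, at 123 and 10.8 CPM (log2 fold change 3.59 ± 0.12, adjusted p = 2.7e-23). *Wnt5a* was at 155 CPM in venous and 13.9 CPM in capillary cells (log2 fold change 3.46 ± 0.15, adjusted p = 6.6e-20). A cluster of 2353 cells led by *Icam1*, with capillary markers and left without a zone name, also had *Wnt5a* among its leading genes. The feedback inhibitors *Nkd1* and *Nkd2* took different places. *Nkd1* was lower in large arterial than in capillary cells (log2 fold change -3.90 ± 0.14), and *Nkd2* was higher in large arterial (3.66 ± 0.21) and in venous cells (4.87 ± 0.18).

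By role, 4 of 12 feedback genes and direct targets tested were higher and 8 lower in veins than in capillaries, among them *Ccnd1*, a cell cycle regulator (log2 fold change -2.26 ± 0.18), and *Notum* (-1.67 ± 0.16). In large arterial cells 5 of the 12 were higher and 6 lower, and in arteriolar cells 4 were higher and 3 lower. Over all genes tested, 17.9% were higher and 16.5% lower in venous, 23.9% and 23.4% in large arterial, and 16.8% and 15.7% in arteriolar cells. Of 11 nuclear partners, 4 were higher and 3 lower in large arterial, 4 higher and 2 lower in arteriolar and 4 higher and 2 lower in venous cells. *Tcf7l1* and *Bcl9l*, a beta-catenin co-activator, were higher than in capillaries in all 3 zones, and *Tcf7* was lower in venous cells (log2 fold change -1.17 ± 0.12, adjusted p = 8.7e-10).

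The next comparison set barrier endothelial cells beside the other cells of the preparation. Against smooth muscle cells, 9 of the 10 genes were higher and 1 lower in barrier cells (of 12522 genes tested 65.9% were called, 29% higher and 36.9% lower). Against microglia 9 were higher and 1 lower (75.1% called, 37.1% higher and 38% lower), and against pericytes 6 were higher and none lower (38.7% called, 21% higher and 17.7% lower). The sums came from 43 to 356 pericytes, 185 to 1078 smooth muscle cells and 223 to 2348 microglia per mouse. The summed level of the 11 barrier markers was 15.0 to 46.1% of that in barrier cells in pericytes, 2.88 to 10.3% in smooth muscle cells and 4.17 to 28.2% in microglia. Its part in the values below was not tested.

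*Lef1* had the largest difference from smooth muscle cells among the 10 genes. It was at 37.9 to 114 CPM (median 52.3) in smooth muscle cells (log2 fold change 3.93 ± 0.31, adjusted p = 2.8e-10) and at 182 to 492 CPM (median 300.0) in pericytes (log2 fold change 1.93 ± 0.30, adjusted p = 1.8e-05). Relative to barrier cells this was 3.64 to 10.6% and 17.5 to 46.8%, close to the share of the barrier markers. *Fzd6* was at 14.7 to 27.9 CPM (median 17.7) in smooth muscle cells (log2 fold change 3.51 ± 0.26, adjusted p = 1.0e-10), and *Reck* was at 42.0 ± 6.53 CPM there and at 89.3 ± 13.7 CPM in pericytes (log2 fold changes 1.81 ± 0.23, adjusted p = 3.9e-07 and 1.11 ± 0.26, adjusted p = 0.0016).

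*Axin2* did not separate barrier cells from pericytes. It was at 71.9 to 143 CPM (median 78.8) in pericytes, 62.8 to 134% of the barrier level of the same mouse, and the log2 fold change was 0.20 ± 0.30 (adjusted p = 0.65). Tests against pericytes were also not passed by *Tspan12* (log2 fold change 0.34 ± 0.26, adjusted p = 0.34), *Adgra2* (0.45 ± 0.25, adjusted p = 0.17) and *Lrp5* (0.30 ± 0.16, adjusted p = 0.15). *Apcdd1* was at 119 to 232 CPM (median 156) in pericytes and at 81.6 to 106 CPM (median 92.6) in smooth muscle cells, lower than in barrier cells in both (log2 fold changes 0.99 ± 0.31, adjusted p = 0.015 and 1.41 ± 0.29, adjusted p = 0.00019).

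The calls of the smaller of these differences lay near the threshold. Leaving out ArcSwe 2 left 3 genes past the test against pericytes, *Lef1*, *Fzd4* and *Reck*, and ended the calls of *Apcdd1*, *Fzd6* and *Lrp6* (log2 fold changes 0.89, 0.66 and 0.29), while leaving out WT 2 ended those of *Fzd6* and *Lrp6* (0.68 and 0.35) and leaving out WT 3 added *Lrp5* (0.46). Against smooth muscle cells, *Fzd4* (log2 fold change 0.52 ± 0.20, adjusted p = 0.029) and *Adgra2* (0.51 ± 0.21, adjusted p = 0.039) missed the threshold without ArcSwe 1 (both 0.50), WT 2 (0.48 and 0.51) or WT 3 (0.54 and 0.51), and *Adgra2* also without ArcSwe 2 (0.50). Among the 10 genes, only *Tspan12* was lower in barrier than in smooth muscle cells, where it was at 115 to 163 CPM (median 144), higher than in barrier cells in 6 of 6 mice (log2 fold change -0.92 ± 0.21, adjusted p = 0.00047).

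In microglia *Lrp5* and *Lrp6* were nearer to their barrier levels than the other 8 genes. The median UMIs per microglial cell were 5954, 5381 and 1241 in WT 1, 2 and 3, and 1549, 2003 and 1168 in ArcSwe 1, 2 and 3. Of 7102 microglia, 3388 and 1487 came from clusters with medians of 1239 and 1200 UMIs. The part of this difference in depth was not tested. *Lrp5* was at 58.2 to 103 CPM (median 65.2) in microglia. It was above the barrier level in 3 of 6 mice (WT 3, ArcSwe 1 and ArcSwe 2) and below it in the other 3 (WT 1, WT 2 and ArcSwe 3). Its fitted level was higher in microglia (log2 fold change -0.45 ± 0.12, adjusted p = 0.002), a call lost under the stricter cell filter and with no filter on low counts (both -0.17) and without both mice numbered 3 (-0.25). *Lrp6* was at 75.1 to 128 CPM (median 78.1), 47.0 to 78.9% of its barrier level (log2 fold change 0.64 ± 0.11, adjusted p = 1.6e-05). The microglial levels of the other 8 genes were 2.09 to 32.2% of the barrier level, lowest in WT 1, WT 2 and ArcSwe 2 and higher in WT 3, ArcSwe 1 and ArcSwe 3, as was the share of the barrier markers. *Fzd4* and *Adgra2* are examples, at 3.77 to 36.0 CPM (median 15.6) and 4.76 to 31.1 CPM (median 10.5).

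**Figure D4:**
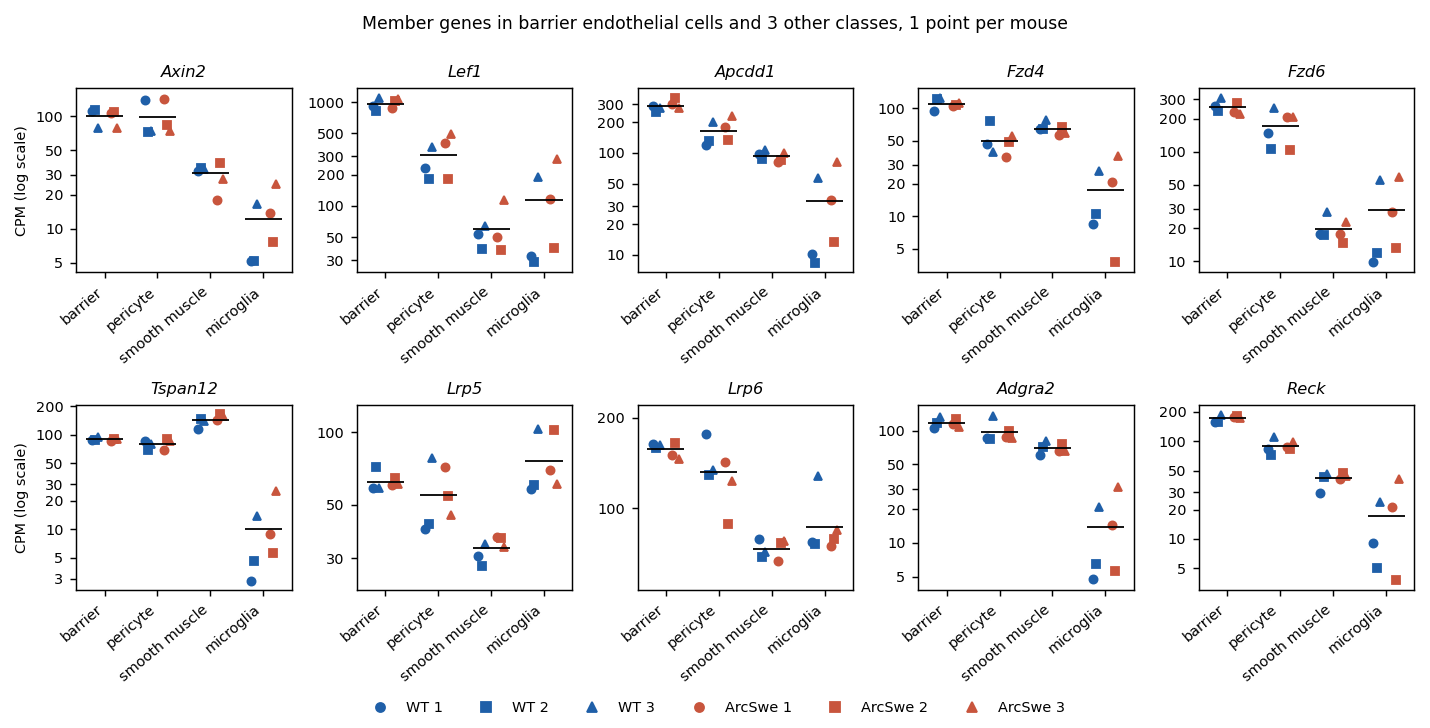
Levels of the 10 genes in CPM (log axis) in barrier endothelial cells, pericytes, smooth muscle cells and microglia, with 1 point per mouse, colour for genotype, marker shape for the mouse number and a line at the mean of 6 mice. *Tspan12* is higher in smooth muscle than in barrier cells, and microglia of WT 3, ArcSwe 1 and ArcSwe 3 lie above those of the other mice for most genes.

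Of 11 other receptors and turnover genes tested, none was higher and 6 were lower in barrier cells than in pericytes (21% and 17.7% of all genes tested), and 2 were higher and 8 lower than in smooth muscle cells (29% and 36.9%). *Ror1*, a receptor for non-canonical Wnt signals, was at a mean of 275 CPM in pericytes, 179 CPM in smooth muscle and 1.49 CPM in barrier cells (log2 fold changes -7.32 ± 0.23 and -7.08 ± 0.22). *Fzd2* was at 69.4 CPM in smooth muscle cells and had 7 UMIs in all barrier sums. Of 14 feedback genes and direct targets, 6 were higher and 3 lower in barrier cells than in pericytes, 10 higher and 3 lower than in smooth muscle cells, and 10 higher and 2 lower than in microglia, where 37.1% and 38% of all genes tested were higher and lower. *Sox17*, a transcription factor of endothelial cells, and *Foxq1* were higher than in pericytes (log2 fold changes 2.23 ± 0.29 and 2.00 ± 0.31) and smooth muscle cells (3.99 ± 0.29 and 4.02 ± 0.32). *Ctnnb1* was higher in barrier cells than in all 3 classes (log2 fold changes 1.31 ± 0.14, 1.38 ± 0.14 and 1.66 ± 0.14).

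The last comparison was between genotypes. In barrier cells none of the 10 genes passed the test between ArcSwe and WT mice by edgeR (0% of the 13344 genes tested were called), 0 of the 10 had an unadjusted p under 0.05, and DESeq2 called 0 of them. Over all genes, 590 had an unadjusted p under 0.05 and DESeq2 called 8. The log2 fold changes lay between -0.13 (*Fzd6*) and 0.19 (*Apcdd1*) with standard errors of 0.07 to 0.20. Their 95% intervals, taken from a normal approximation, lay within -0.44 and 0.42. Intervals matched to the quasi-likelihood test on so few mice would be wider, and were not computed. For *Axin2* the mean was 101 ± 20.5 CPM in WT and 98.1 ± 16.8 CPM in ArcSwe mice (log2 fold change -0.05 ± 0.20, adjusted p = 0.998), for *Lef1* 949 ± 142 CPM and 997 ± 107 CPM (0.09 ± 0.13, adjusted p = 0.998) and for *Apcdd1* 272 ± 16.1 CPM and 308 ± 38.3 CPM (0.19 ± 0.11, adjusted p = 0.998). The values of the genotypes overlapped for all 10 genes, where 10.1% of genes tested had groups that did not overlap.

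Within zones, fenestrated cells and pericytes none of the 10 genes passed the test by edgeR (0% of genes tested were called, apart from 0.0115% in large arterial and 0.022% in arteriolar cells) or by DESeq2, which called 14 genes in capillary, 9 in arteriolar, 1 in large arterial and 0 in venous and fenestrated cells and pericytes. At an unadjusted p under 0.05 there was 1 of the 10 genes each in capillary and arteriolar cells, *Apcdd1* in both. Over all genes tested, 748 of 11982 in capillary and 379 of 9098 in arteriolar cells had such a p. In capillaries *Apcdd1* was at 307, 278 and 308 CPM in WT and 335, 357 and 346 CPM in ArcSwe mice, without overlap (log2 fold change 0.23 ± 0.09, adjusted p = 0.79), in a class where 11.8% of genes tested had groups that did not overlap. In arteriolar cells its log2 fold change was 0.35 ± 0.16 (adjusted p = 0.9999), and in venous cells 0.29 ± 0.18 (adjusted p = 0.9999). *Lrp6* in capillaries (log2 fold change -0.08 ± 0.09, adjusted p = 0.9), *Tspan12* in arterioles (0.12 ± 0.13, adjusted p = 0.9999) and *Apcdd1* in veins were the other cases without overlap, where 8.99% of genes in arteriolar and 8.73% in venous cells did not overlap. There was none in large arterial cells, fenestrated cells or pericytes, where 9.12%, 9.5% and 8% did not overlap. In fenestrated cells 8 of the 10 genes were tested, *Axin2* and *Adgra2* falling under the count filter, and *Lef1* and *Apcdd1* had log2 fold changes of 1.32 ± 0.70 (adjusted p = 0.998) and 1.04 ± 0.56 (adjusted p = 0.998). The barrier marker share in these cells was highest in ArcSwe 3, the mouse with the highest *Lef1* and *Apcdd1* among them, and its part was not tested. Without ArcSwe 3 the log2 fold changes there were 0.14 for *Lef1* and 0.38 for *Apcdd1*, and over the mice left out in turn they were 0.14 to 1.83 and 0.38 to 1.58. Without both mice numbered 3 that of *Lef1* was 0.64 ± 0.58, and *Apcdd1* fell under the count filter.

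The genotype effect on the 10 genes was not shown to differ between zones, the lowest adjusted p of the genotype by zone terms being 0.999, with 0.0205% of 9773 genes called. Of the other pathway genes, 62 were tested between genotypes in barrier cells and none passed.

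**Figure D5:**
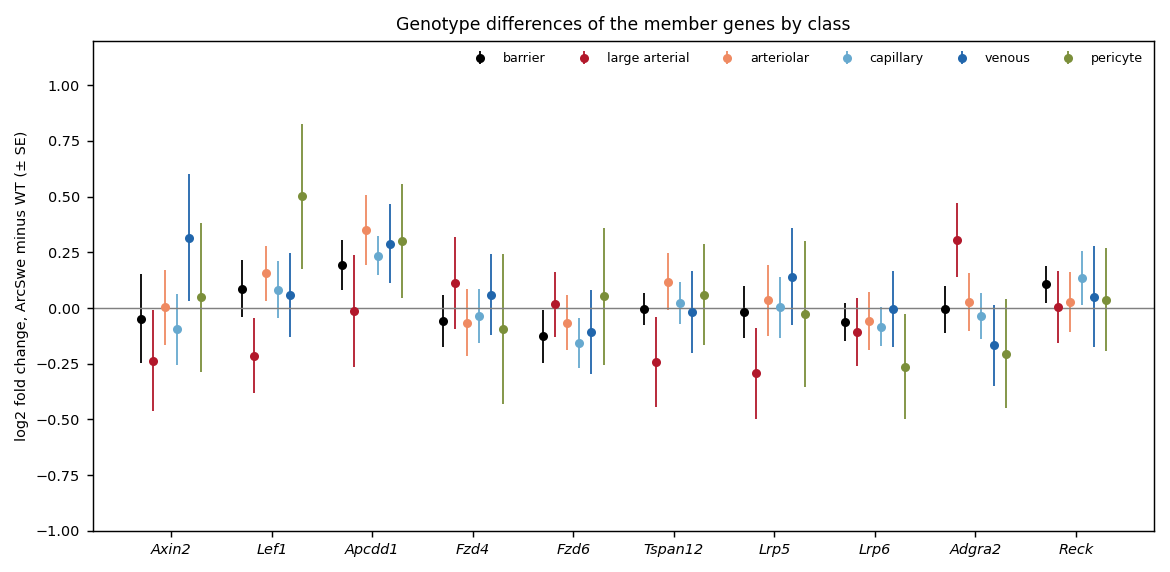
Log2 fold change of the 10 genes between ArcSwe and WT mice (positive is higher in ArcSwe) with its standard error, in barrier endothelial cells, the 4 zones and pericytes. No value passed the test, and in barrier cells the values lie between -0.13 and 0.19.

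Over the 30 endothelial sums (4 zones and fenestrated cells of 6 mice), 4 of the 5 genes whose log2(CPM + 1) was most like that of *Axin2* by Pearson's r were *Spock2* (0.96), *Tcf7* (0.955), *Bsg* (0.947) and *Notum* (0.946), of 9821 genes. For *Lef1* they were *Prom1* (0.984), *Tnfrsf19* (0.982), *Colca2* (0.976), *Slco1a4* (0.975) and *Flvcr2* (0.974). *Apcdd1* was most like *Nkd1* (0.971), the iron exporter gene *Slc40a1* (0.965), *Rab11fip1* (0.958), *Grap* (0.957) and *Pglyrp1* (0.954). *Fzd6* was most like *Jcad* (0.971), *St8sia6* (0.965), *Lrp6* (0.949), *Nebl* (0.947) and *Rhpn2* (0.947). *Tspan12* was most like *Hmbox1* (0.967), *Phldb2* (0.955), *Plscr2* (0.949) and the basement membrane collagen genes *Col4a1* (0.948) and *Col4a2* (0.94). *Spock2*, *Slco1a4* and *Pglyrp1* were also among the markers that named the classes. The sums of a mouse share a library and its depth, so these values are a description.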

How the data were processed

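The deposited files held raw UMI counts per gene and cell, which the authors made with Cell Ranger 7.0.0 against mm10. Of 49059 cells, 44112 with 500 to 4500 genes and under 10% mitochondrial counts were kept, no doublet caller was run, and ribosomal protein, mitochondrial, pseudogene and Rik genes (2992 of 32287) were removed. Cells were clustered with leidenalg 0.10.2 at a resolution of 1, without the 10 genes and the pathway lists, and clusters were named from marker lists (2123 cells unnamed). Of endothelial cells, 5333 barrier and 206 fenestrated cells with *Cx3cr1* or *Aif1* UMIs and 3342 barrier cells in clusters led by genes of other cell types were left out. Such clusters held more markers of another cell type than of endothelial cells among their 10 leading genes, in 1 of them by *Ttr* alone. That cluster had 812 of its 1021 cells from WT 3, and the largest had 1409 of 1856 from ArcSwe 3. Counts were summed per mouse and class with 10 or more cells and tested with edgeR 4.0.16 in R 4.3.3 (quasi-likelihood, TMM, filterByExpr) with mouse as a block between classes and zones and genotype alone between genotypes, and Benjamini-Hochberg adjustment over all genes tested. Alternatives included DESeq2 1.42.0. The fits were tested on simulated data. There, 147 of 200 genes changed by a log2 fold change of 1 were called between barrier and fenestrated cells, and 186 of 200 between venous and capillary cells. Between genotypes in barrier cells, 146 of 200 were called at a change of 1 and 24 of 200 at a change of 0.5. A genotype difference of 0.5 or less could thus often be missed. The 10 genes and the lists were chosen with earlier results of these data known. Of the other pathway genes, those called in a comparison were named, at most the 4 of largest absolute log2 fold change per list and comparison. Genes of similar pattern were the 5 of highest Pearson r of log2(CPM + 1) among genes of at least 10 CPM in a class mean. Values of 1 gene that these rules name are not reported here, and it stays in the counts of its list.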

Additional observations from a re-analysis of the deposited data

Results flagged for a closer look

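In 4 of 70 sets of 6 per-mouse differences in log2(CPM + 1), 1 mouse lay far from the others by Dixon's test, which chance alone gives in about 1 of 20 sets. The *Tspan12* difference between large arterial and capillary cells was -1.26 in ArcSwe 2 and -0.37 or above in the other 5 mice, and this mouse had the fewest large arterial cells, 74. The *Reck* difference between the same zones was 2.56 in WT 1 and at most 2.02 in the others. The *Fzd6* difference between arteriolar and capillary cells was 0.22 in WT 3 and 0.52 to 0.66 in the others. The *Lrp5* difference between barrier and smooth muscle cells was 1.33 in WT 2 and at most 0.91 in the others. All of these kept the direction of the other mice.

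A cluster of blood-derived immune cells with lymphocyte markers entered no comparison, with 22 to 74 cells per mouse. Its median level of *Lef1*, which T cells are known to express, was 666 CPM (148 to 1078 over the mice), that of *Lrp6* was 86.3 CPM (48.7 to 126) and that of *Reck* 43.3 CPM (17.6 to 54.6), each median above the level that 3 UMIs would give in the smallest of these sums. The part of free endothelial transcripts in these values was not tested.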

How the results depend on the processing

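The 10 calls between barrier and fenestrated cells and the joint zone calls held under all alternatives run, and 1625 of 1723 single-gene values recomputed kept their direction and their side of the threshold, while 23 gained and 45 lost a call and 30 changed sign without a call. With the stricter cell filter, 5 of the 10 genes were called between arteriolar and capillary cells in place of 8. Over all genes, the alternatives gave 2208 to 3656 calls there in place of 3182. With no filter on low counts, 1 of the 10 genes was called between genotypes in fenestrated cells, *Lef1* (log2 fold change 1.30, adjusted p = 0.00085), a difference that with the filter was 0.14 without ArcSwe 3. Leaving out each mouse in turn gave 3 to 7 calls against pericytes, 8 to 10 against smooth muscle cells, 6 to 8 in large arterial and 6 to 7 in venous cells. Over all genes there were then 4295 to 4582, 7581 to 8135, 4065 to 4543 and 2845 to 3244 calls. With all mice these were 4842, 8249, 4625 and 3360. *Lef1* was called lower in arteriolar than capillary cells under 4 alternatives (-0.28 to -0.49). These were all the alternatives that clustered the cells anew. *Lrp6* was called lower in venous cells under 6 alternatives (-0.18 to -0.28). The cause was not tested.

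Sign changes were all of uncalled values near 0. *Lef1* between venous and capillary cells was -0.012 with no low count filter, -0.077 with microglial UMIs kept, -0.046 at resolution 2, -0.10 with the stricter filter and -0.068 with pathway genes used for clustering, and between arteriolar and capillary cells 0.0095 without both mice numbered 3. Leaving out single mice gave -0.053 to 0.066 for *Lrp6* in large arterial and -0.057 to 0.044 for *Axin2* in arteriolar cells. Between genotypes in barrier cells, *Tspan12* was 0.0071 with the stricter filter, 0.0087 with pathway genes used for clustering and 0.00081 with clusters led by other cell types kept, *Adgra2* was 0.0028 with microglial UMIs kept, 0.025 at resolution 2, 0.013 with the stricter filter, 0.012 with pathway genes used, 0.0062 with clusters led by other types kept and 0.11 without both mice numbered 3, and *Fzd6* was 0.011 without both. Leaving out single mice there gave -0.23 to 0.093 for *Axin2*, -0.18 to 0.035 for *Fzd4*, -0.023 to 0.020 for *Tspan12*, -0.098 to 0.11 for *Lrp5* and -0.079 to 0.055 for *Adgra2*.

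The replicate numbers of the labels were not taken to pair mice. Deviations of same-numbered WT and ArcSwe mice in barrier cells correlated across genes at 0.05, 0.16 and 0.32. Those of differently numbered mice lay between -0.29 (WT 1 with ArcSwe 3) and 0.26 (WT 1 with ArcSwe 2). With the replicate block 0 of the 10 genes were called between genotypes in any class. Over all genes the block moved the calls from 2 to 19 in arteriolar, 1 to 2 in large arterial, 0 to 2 in venous and 0 to 1 in fenestrated cells, and the highest count under another alternative with the low count filter was 18 in capillary cells, without both mice numbered 3, and 14 for genotype by zone, without WT 3. With no low count filter these counts were 0 to 80. *Axin2* and *Adgra2* were too low in fenestrated cells to be tested between genotypes.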
